A study of Zea mays with 2 samples.

Results

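The peaks described here are methylation peaks of maize endosperm that lie beside, but not on, a methylation peak of the embryo. They were chosen by their measured positions: an endosperm peak on chromosomes 1 to 10 was taken when it shared no base with an embryo peak and its nearest embryo peak lay at most 1000 bp away. Of 114577 endosperm peaks on these chromosomes, 12598 met the rule, which is 11% (95% Wilson interval 10.8 to 11.2). The other endosperm peaks were on an embryo peak (85079, or 74.3%) or farther than 1000 bp from any (16900). The 12598 peaks were therefore 42.7% (42.1 to 43.3) of the 29498 endosperm peaks that were not on an embryo peak. Positions and distances made the choice, so they are given as a description.

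The study profiled DNA methylation in embryo and endosperm of the maize inbred line B73, both collected 14 days after self-pollination. Sheared genomic DNA of each tissue was immunoprecipitated with an antibody against 5-methylcytidine and sequenced (MeDIP-seq). There is 1 library per tissue, with no replicate, so no test between the tissues was made. On chromosomes 1 to 10 the deposited peak lists hold 351748 embryo peaks and 114577 endosperm peaks. These lists carry no reads, and the coverage of single peaks was not analysed here.

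Plants methylate cytosine in CG, CHG and CHH contexts, and most of the methylated DNA lies in transposable elements. The endosperm is the nourishing tissue of the seed, formed by a fertilization of its own, and in Arabidopsis and rice its DNA carries less methylation than that of the embryo, in part through DNA glycosylases of the DEMETER family that remove methylated cytosine in the central cell. A MeDIP peak marks a stretch where immunoprecipitated fragments pile up, and its edges depend on fragment length and on the peak caller, so it does not give the state of single cytosines. Fragments of both libraries reach past the methylated bases, and the part of edge placement in the distances given here was not tested.

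Most of these endosperm peaks lay well inside the limit of 1000 bp. Distance is the number of bases between the facing edges of the peaks, so that peaks that abut are at distance 0. The median distance to the nearest embryo peak was 363 bp (95% interval of the median 354 to 371). The middle 50% of the distances ran from 153 to 628 bp, and the middle 80% from 53 to 840 bp. In all, 33 peaks abutted the embryo peak, 1198 lay under 50 bp from it (9.51%), 17.5% lay under 100 bp and 63.4% under 500 bp. The nearest embryo peak was at the lower coordinate for 6280 peaks and at the higher coordinate for 6317, and 1 peak was at equal distance from its neighbours.

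The number of peaks per 100 bp of distance fell steeply at first. From 0 to 99 bp there were 2203 peaks, from 100 to 199 bp 1754, from 500 to 599 bp 1147 and from 900 to 999 bp 780. The limit itself cut through a smooth slope, since 695 endosperm peaks followed between 1000 and 1099 bp. Exactly at the limit there were 5 peaks at 1000 bp, and 8 peaks outside the rule lay at 1001 bp. For example, chr1:101368016-101368210 (195 bp, diffScore 50.12), chr5:9948806-9948967 (162 bp, 53.52) and chr5:39126066-39126320 (255 bp, 73.75) were just inside. Just outside were chr1:164987010-164987196 (187 bp, diffScore 74.31), chr2:144094228-144094407 (180 bp, 54.47) and chr3:11979282-11979426 (145 bp, 50.46). The diffScores of these 3 peaks inside and 3 outside the limit were interleaved. The genome build of these positions is not given in the sources used here, and they are 1-based on the chromosomes of the deposited lists.

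The number expected from shifted positions was taken as the mean over every circular shift of the endosperm peaks along their chromosome, with peak lengths and embryo peaks kept. Shifted peaks lay beside an embryo peak 28875 times on average (25.2% of the list) and on one 10806 times (9.43%). The observed 12598 peaks were 0.436 times the shifted number (0.429 to 0.444). The low ratio goes with the large number of endosperm peaks on embryo peaks, which leaves few peaks to lie beside them. Among the peaks that were not on an embryo peak the order turned: 42.7% lay beside one, against 27.8% for shifted positions, a ratio of 1.53 (1.51 to 1.56). The intervals cover counting error only, and no p-value was attached to these ratios.

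The excess among peaks not on an embryo peak was concentrated at short range. With the shifted numbers scaled to the 29498 peaks not on an embryo peak, 983 peaks were expected from 0 to 99 bp and 2203 were found, a ratio of 2.24 (2.15 to 2.33). The ratio was 1.88 from 100 to 199 bp, 1.71 from 200 to 299 bp and 1.44 from 500 to 599 bp. It reached 1.13 (1.06 to 1.21) from 900 to 999 bp. Beyond the limit it was near 1, at 1.04 (0.969 to 1.12) from 1000 to 1099 bp, 0.993 from 1200 to 1299 bp and 1.02 from 1500 to 1599 bp. All intervals from 1000 to 1599 bp included 1. The ratio was 0.767 (0.681 to 0.864) from 2900 to 2999 bp. Because the shifted numbers were scaled to the same total, an excess at short range goes with ratios under 1 farther out. The distance at which the ratio passes 1 depends on that scaling. Shifted peaks within the limit had a median distance of 452 bp, and 12.0% of them lay under 100 bp.

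**Figure D1:**
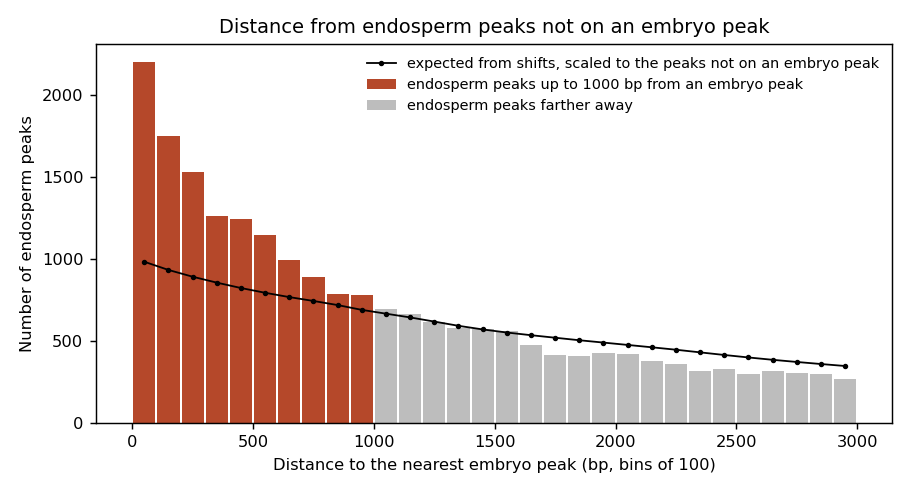
Number of endosperm peaks not on an embryo peak (vertical axis) by distance to the nearest embryo peak in bp (horizontal axis, bins of 100 bp); red bars are the peaks within 1000 bp, grey bars those farther away, and the black line the number expected from shifted positions, scaled to the 29498 peaks not on an embryo peak. The first bar holds 2203 peaks against 983 on the line, and bars and line lie close together from 1000 to 1599 bp.

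Fixed displacements, which keep the local density of peaks, gave similar values to the mean over all shifts. When the endosperm list was moved by 5 to 100 kb to either side, 28083 to 30508 peaks lay beside an embryo peak. These were 27.1 to 29.8% of the displaced peaks not on an embryo peak, below the 42.7% at the true positions. Their median distance was 446 to 461 bp, against 363 bp.

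The spacing within each single list was also dense at short range. Neighbouring embryo peaks stood at most 1000 bp apart in 84480 places, with a median of 357 bp and 21.2% under 100 bp. Neighbouring endosperm peaks did so in 15350 places, with a median of 287 bp and 26.0% under 100 bp. The smallest space between neighbours of the same list was 1 bp. The 17.5% of endosperm peaks under 100 bp from their embryo neighbour is not a like measure. It takes the nearer side of each peak and leaves out endosperm peaks on an embryo peak, whereas peaks of 1 list never overlap. The shares are therefore not ranked.

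Most of the peaks were flanked on 1 side only. An embryo peak lay within 1000 bp on the lower side alone for 5414 peaks and on the higher side alone for 5470, together 10884 (86.4%). The remaining 1714 peaks (13.6%, 13.02 to 14.22) had an embryo peak within 1000 bp on both sides. Shifted peaks had both flanks in 9.44% of cases, and displaced peaks in 8.75 to 9.97%. One-sided peaks had their nearest embryo peak at a median of 404 bp and the embryo peak on the opposite side at a median of 5215.5 bp. For two-sided peaks the medians were 184.5 bp to the nearer and 576.5 bp to the farther embryo peak. The nearer distance is the smaller of those on both sides, each within 1000 bp, so a low median goes with the definition. No shifted value was computed for these medians.

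The two-sided peaks filled a minor part of the space between their embryo neighbours. The median space between the flanking embryo peaks was 1015.5 bp (interquartile range 706 to 1298.75 bp), of which the endosperm peak took a median of 21.3%. In 121 cases (7.06%) it took more than 50%. The shortest space was 140 bp on chromosome 6, where the endosperm peak chr6:135997210-135997331 (122 bp, diffScore 52.08) stood 17 bp from the embryo peak on its lower side and 1 bp from that on its higher side. On chromosome 2 the endosperm peaks chr2:28484926-28485050 (125 bp, diffScore 57.2) and chr2:23278480-23278621 (142 bp, diffScore 51.93) stood in spaces of 171 and 181 bp. All 3 had diffScores below 60, near the minimum of the list. Over all 12598 beside peaks, one-sided and two-sided, 11890 were the only beside peak between their embryo neighbours. Another 708 shared the space with other beside peaks, and the most in one space was 4. Endosperm peaks outside the rule were not counted here.

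The endosperm peaks beside embryo peaks had low diffScores and were short. The diffScore is the score that the authors' peak caller gave each peak, −10 times the log10 of its p-value, and no peak in either list is under 50. The median diffScore was 59.69 (95% interval 59.47 to 59.97), and 50.9% of the peaks were under 60. A diffScore of at least 100 was reached by 569 peaks, or 4.52% (4.17 to 4.89), against 18.6% of all endosperm peaks. Endosperm peaks on an embryo peak reached it in 23.5% of cases, with a median of 71.91. Endosperm peaks farther than 1000 bp from any embryo peak reached it in 4.42% (4.12 to 4.74), with a median of 59.34, and the intervals of the beside and the farther peaks overlapped.

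Length set the beside peaks between these groups. Their median length was 188 bp (95% interval 186 to 189), against 225 bp for endosperm peaks on an embryo peak and 175 bp for those farther away. In all, 75 of them were at least 1000 bp long, and together they covered 2686 kb. Two-sided peaks had a median length of 197 bp and one-sided peaks 186 bp, with median diffScores of 60.5 and 59.6.

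**Figure D2:**
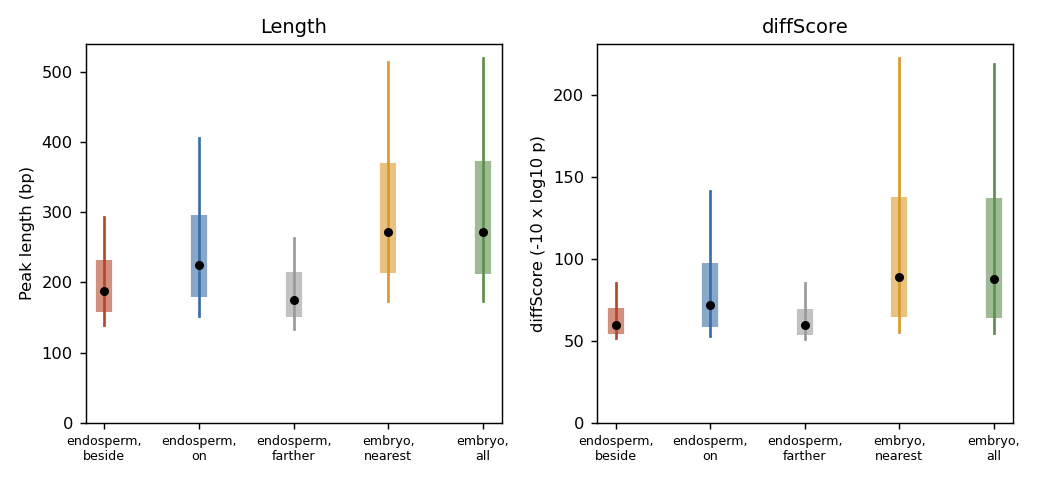
Peak length in bp (left) and diffScore (right) for endosperm peaks beside, on and farther than 1000 bp from an embryo peak, for the nearest embryo peaks and for all embryo peaks. Points are medians, boxes the middle 50% of peaks and lines the 10th to 90th percentiles; the beside peaks have medians of 188 bp and 59.69, and their nearest embryo peaks 272 bp and 89.165. The diffScores of embryo and endosperm come from separate libraries and are not to be compared with each other.

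The embryo peaks next to them were typical of the embryo list. The 12598 endosperm peaks had 12256 different nearest embryo peaks. These had a median length of 272 bp and a median diffScore of 89.165, against 272 bp and 87.82 for all embryo peaks. A diffScore of at least 100 was held by 42.2% (41.3 to 43.1) of the nearest embryo peaks, close to the 41.4% of all embryo peaks. The nearest embryo peak was longer than the endosperm peak in 10204 of 12598 pairs (81.0%). Embryo peaks were longer as a list, with a median of 272 bp against 212 bp for all endosperm peaks. No share for pairs from the whole lists is given here, so the 81.0% is not read as particular to these neighbours. Since the diffScore depends on the depth and background of each library, its height was not compared between the tissues.

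Pairs of neighbours were related in length more than in diffScore. Across the 12598 pairs, Spearman's rho was 0.29 between the lengths of the neighbours and 0.055 between their diffScores. Both peaks of a pair lie in the same stretch of the genome, and pairs that share an embryo peak are not independent, so these are descriptions. Distance was hardly related to the endosperm peak: rho was −0.012 with its diffScore and −0.012 with its length. The median diffScore of the endosperm peaks stayed between 59.015 and 60.45 in the 10 distance classes of 100 bp.

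The nearest embryo peak often carried another endosperm peak. It did so for 3807 of the 12598 peaks, or 30.2% (29.4 to 31.0), against 23.7% of all embryo peaks. For displaced endosperm peaks the share was 23.21 to 25.05%. It was 32.4% at 0 to 99 bp and 34.2% at 100 to 199 bp, and 23.4% (20.6 to 26.5) at 900 to 1000 bp. Peaks whose embryo neighbour carried an endosperm peak had a median distance of 324 bp, against 383 bp for the other 8791. They were also longer, with a median of 197 bp against 184 bp, and had a median diffScore of 61.19 against 59.23.

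These shared embryo neighbours were the stronger ones. Nearest embryo peaks with an endosperm peak on them had a median diffScore of 132.45 and a median length of 328 bp, and those without had 78.82 and 255 bp. The same split over all embryo peaks gave 138.86 and 341 bp against 79.66 and 257 bp. Of the 1714 two-sided endosperm peaks, 283 (16.5%) had an endosperm peak on both flanking embryo peaks, 676 (39.4%) on 1 of them and 755 (44.0%) on neither.

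Another endosperm peak was also often close by. Within 1000 bp, 4683 of the beside peaks (37.2%, 36.3 to 38.0) had a further endosperm peak, against 25.6% of endosperm peaks on an embryo peak and 7.29% of those farther away. The rule bears on this contrast. Peaks farther away have no embryo peak within 1000 bp, so endosperm peaks on embryo peaks are mostly kept from their surroundings. The 37.2% can include endosperm peaks on the nearest embryo peak, described above. No value for displaced peaks was computed, so the contrast is a description only. Few embryo peaks were the nearest neighbour of several: 11925 were nearest to 1 beside peak, 320 to 2 and 11 to 3. Of the 320, 132 had 1 endosperm peak on each side. Of the 11, the first by position was chr1:172857695-172857911 (217 bp, diffScore 50.9), with 3 endosperm peaks on its lower side at 228, 671 and 873 bp and diffScores of 71.81, 64.39 and 63.08. The next, chr3:8864514-8864625 (112 bp, diffScore 65.22), had 3 on its lower side at 446, 648 and 934 bp. The nearest of these had a diffScore of 124.19. The embryo peak chr3:127739559-127739827 (269 bp, diffScore 134.92) had endosperm peaks on both sides, at 137 bp above it and at 653 and 912 bp below it, all with diffScores under 60.

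The strongest endosperm peaks of the group were long. The highest diffScore was 577.83, for chr1:155401325-155403524, a peak of 2200 bp that stood 137 bp from the embryo peak chr1:155403662-155404271 (610 bp, 503.94). On chromosome 3 the peak chr3:164574437-164576136 (1700 bp) had a diffScore of 461.89 and lay 705 bp from an embryo peak of 178 bp with a diffScore of 93.98. The peak chr10:67285779-67287808 (2030 bp, diffScore 399.45) lay 270 bp from an embryo peak of 182 bp with a diffScore of 59.53. These 2 embryo neighbours carried no endosperm peak and were short beside the endosperm peak. The peaks chr3:60863112-60864465 (1354 bp, 392.14) and chr4:154068447-154070326 (1880 bp, 373.49) lay 770 and 830 bp from embryo peaks with diffScores of 188.81 and 422.54. Each of the 5 was flanked within 1000 bp on 1 side only.

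Length and diffScore did not always go together. The longest peak, chr7:60550315-60553459, spanned 3145 bp with a diffScore of 187.93 and lay 40 bp from an embryo peak of 691 bp (289.44). The next, chr5:16049996-16052655, spanned 2660 bp with a diffScore of 154.97 and lay 724 bp from an embryo peak with 197.83. The third, chr1:231942835-231945424, spanned 2590 bp with a diffScore of 55.42, near the minimum. It stood between embryo peaks at 731 and 929 bp, the nearer of them 1712 bp long with a diffScore of 1256.51. All 3 nearest embryo peaks carried an endosperm peak.

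The share of endosperm peaks beside an embryo peak fell with diffScore in the whole list, but not among the peaks that were off the embryo peaks. With the endosperm list cut by diffScore into 10 equal classes, from the lowest to the highest class the share of beside peaks went from 17.2 to 1.61%, while the share on an embryo peak went from 57.6 to 96.2%. Among peaks not on an embryo peak, the share beside one stayed between 40.6 and 44.8% in the 10 classes, with 40.6% (39.2 to 42.0) in the lowest and 42.4% (37.9 to 47.1) in the highest. Across length classes it did change. Of peaks under 150 bp that were not on an embryo peak, 35.6% (34.4 to 36.8) lay beside one, and this was 46.2% at 200 to 249 bp and 54.9% (52.3 to 57.4) at 300 to 399 bp. The share expected from shifted positions was 27.6 to 27.9% in every length class, so the ratio to it went from 1.28 to 1.98.

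**Figure D3:**
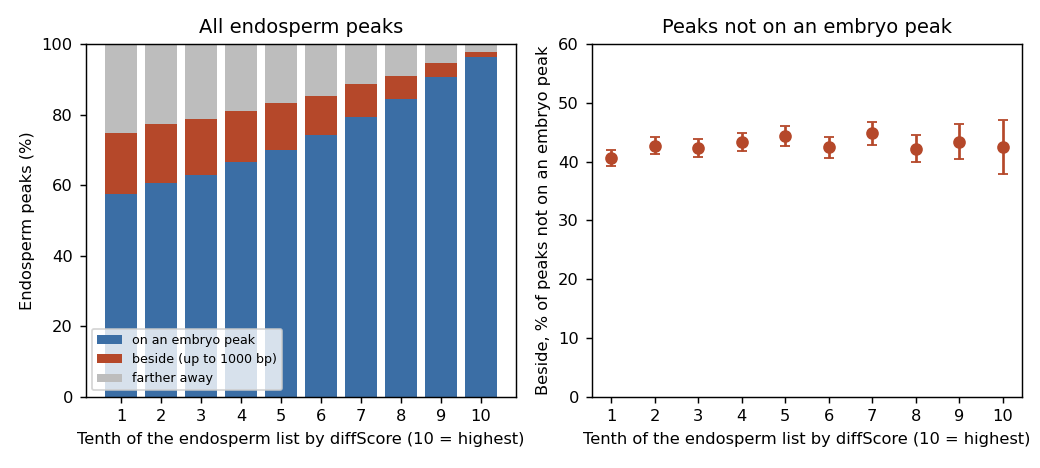
Left, percent of endosperm peaks on, beside (up to 1000 bp) and farther from an embryo peak, in 10 equal classes of the endosperm list by diffScore; the red share falls from 17.2 to 1.61%. Right, peaks beside an embryo peak as a percent of the peaks not on one, with 95% Wilson intervals; all classes lie between 40.6 and 44.8%.

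The peaks were spread over all 10 chromosomes. Their share of the endosperm list was 10.5% on chromosome 1 (1729 peaks) and 11.4% on chromosome 3 (1437 peaks), with the other chromosomes between. Of the peaks not on an embryo peak, 41.4% (39.7 to 43.1) lay beside one on chromosome 5 and 43.9% (42.0 to 45.9) on chromosome 6, and these intervals overlapped. The ratio to the shifted positions was above 1 on every chromosome, from 1.46 on chromosome 4 to 1.59 on chromosome 6. When each chromosome was cut in 3 equal parts, the peaks were 11.2%, 11.4% and 10.4% of the endosperm list in the left, central and right part. Of the peaks not on an embryo peak they were 43.1% (42.1 to 44.1), 41.4% (40.5 to 42.3) and 43.9% (42.9 to 45.0), so on this measure the central part had the lowest value. In 2054 windows of 1 Mb the median was 6 peaks, and 9 windows held none. The most, 27, lay between 19 and 20 Mb of chromosome 6, a window with 143 endosperm and 281 embryo peaks. Over the windows, the number of these peaks had a Spearman's rho of 0.45 with all endosperm peaks, which include them, and 0.30 with embryo peaks. Windows of 1 chromosome share their library and their neighbourhood, so these are descriptions.

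**Figure D4:**
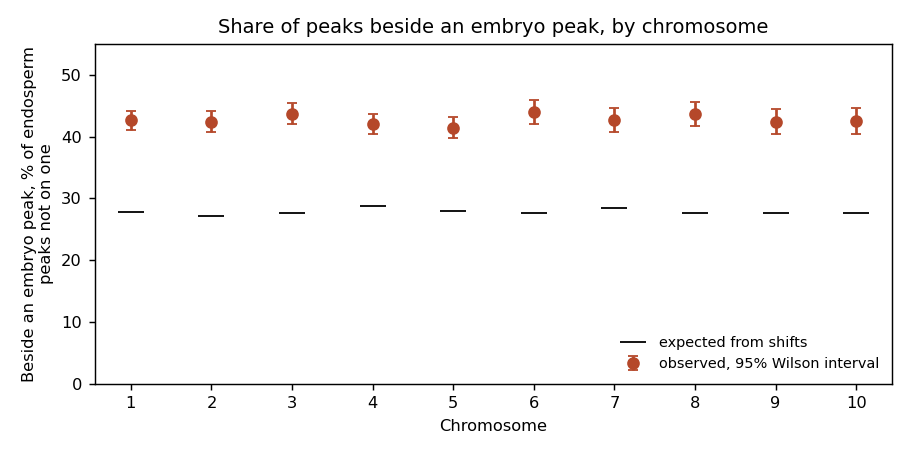
Endosperm peaks beside an embryo peak as a percent of the endosperm peaks not on one, by chromosome (points, with 95% Wilson intervals), and the percent expected from shifted positions (black dashes). The points lie between 41.4 and 43.9%, above the dashes on all 10 chromosomes.

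Seen from the embryo, 36327 peaks lay within 1000 bp of an endosperm peak without sharing a base with one. Shifted positions gave 33370, so the ratio of the numbers was 1.09, against 0.436 for the endosperm list. They were 13.5% (13.4 to 13.7) of the embryo peaks not on an endosperm peak, against 9.79% for shifted positions, a ratio of 1.38, against 1.53 for the endosperm list. Their median distance was 425 bp and their median diffScore 78.44. Of all embryo peaks, 23.7% carried an endosperm peak, while 74.3% of endosperm peaks were on an embryo peak. The ratios of 1.09 and 0.436 are therefore not like measures and are not read as a difference between the tissues.

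Gene regions were at hand for a stretch at the start of chromosome 1 only, up to position 62527212. The study's labels there tie a peak to a promoter, exon, intron, coding sequence, untranslated region or transcriptional termination region (TTR), and 1 peak can carry several. Within these rows, 79 of the beside peaks were paired with 129 genes, of which 22 matched a RefSeq symbol. The same rows label 846 endosperm peaks in all, the 79 among them. A TTR label was held by 40 of the 79 (50.6%) and by 50.4% of the 846, and a promoter label by 33 (41.8%) and 47.0%. An exon label was held by 33 (41.8%) and by 24.1% of the 846, and a coding sequence label by 29 (36.7%) and 20.2%. Introns held 22 (27.8%, against 24.0%), 3′ UTRs 11 (13.9%, against 8.27%) and 5′ UTRs 5 (6.33%, against 6.15%). Beside peaks with a UTR label carried no exon label of the gene that the UTR label names, so those gene names are uncertain. These shares are given without a test, since 1 gene can label several peaks. Their median diffScore was 58.13 and their median distance 416 bp. The nearest embryo peak carried an endosperm peak for 28 of them, and 13 were two-sided. None of the 79 was paired with a gene of the study's list of imprinting genes, with which the rows pair 3 of the 846 peaks.

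Of the 8 peaks among the 846 that were labelled with a listed transposable element gene, 2 were beside peaks. The study lists the 2 transposable element genes as Ty1-copia retrotransposons, elements that move through an RNA copy and are commonly kept methylated in plants. One, chr1:48875472-48875655 (184 bp, diffScore 54.63), was labelled with the 5′ UTR of GRMZM2G034120 (LOC100274936) and lay 214 bp from an embryo peak with a diffScore of 60.31. The labels of the same peak name 4 more genes, among them a coding sequence of GRMZM2G383767. None of its exon labels is of GRMZM2G034120, so its place in that gene is uncertain. The other, chr1:56022579-56022712 (134 bp, diffScore 58.04), lay in an intron and in the TTR of GRMZM2G049211, 760 bp from an embryo peak that carried an endosperm peak. It also carried labels of GRMZM2G351344 and GRMZM2G351346. Both beside peaks were close to the minimum diffScore.

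Among the 79, the highest diffScore was 115.3, for a peak in the TTR of GRMZM2G399072 (chr1:16118108-16118307), 14 bp from an embryo peak with a diffScore of 250.46. A peak in the coding sequence and an intron of GRMZM2G370326 (chr1:9069798-9070107) followed with 104.98, at 104 bp from an embryo peak with 52.15. In the promoter of GRMZM2G159477 (LOC100216915) a peak of 320 bp had 103.9 and lay 992 bp from its embryo neighbour, near the limit. A peak in GRMZM2G452062 and the TTR of GRMZM2G396902 had 97.96 at 34 bp, and a peak in the TTR of GRMZM2G079112 (LOC100383088) had 96.35 at 260 bp. The peaks at GRMZM2G399072, GRMZM2G159477 and GRMZM2G079112 carried the label of a single gene.

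A few annotated genes were chosen after their values were seen. A peak in the TTR of aos2 (GRMZM2G002178), named for allene oxide synthase, an enzyme of jasmonate synthesis, had a diffScore of 53.03 and lay 226 bp from an embryo peak with 85.85. A peak in the promoter, coding sequence and an intron of GRMZM2G344416, annotated by the study as a cyclin superfamily protein, had 77.34 and lay 752 bp from an embryo peak with 103.6. Cyclins drive the passage of cells through the division cycle. A peak in the TTR of GRMZM2G173251, annotated as 3-isopropylmalate dehydrogenase, an enzyme of leucine synthesis, had 66.47 and lay 359 bp from an embryo peak of 665 bp with 623.7, which carried an endosperm peak. The peak at aos2 also carried a promoter label of GRMZM5G849028, and the peak at GRMZM2G344416 a TTR label of GRMZM2G509046. The diffScores of the pairs are values of separate libraries and are not ranked.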

How the data were processed

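Reads were cleaned by the authors and aligned by Bowtie2 2.0.5 with default settings, and MACS then called peaks in either library at p up to 1e-05. The authors deposited 1 list per tissue, with position and a score, the diffScore. No replicate exists, and an input library and the genome build are not given in the sources used here. From the lists, nearest neighbours, overlaps (at least 1 bp) and exact means over all circular shifts were computed in Python 3.11.15 (scipy 1.17.1, pandas 2.3.3, numpy 2.4.6) and plotted by matplotlib 3.10.9. The code was tested on simulated data and against bedtools 2.31.1, and 9 of 9 checks gave the known number. Intervals are 95% Wilson intervals (for medians, from order statistics). They cover counting error only and treat peaks as independent. Peaks of 1 library are not replicates, and peaks close to each other are not independent.

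The peaks, gene lists and limits were chosen with earlier results of these data known. Peaks named are the 5 of highest diffScore, the 3 longest, 3 on either side of the limit, the 3 in the shortest embryo spaces, those at 3 of the 11 embryo peaks tied for most neighbours (the first by position), and, of those with a gene label, those in listed transposable element or imprinting genes or genes of the study's text, and the 5 of highest diffScore. Outside this rule, the peaks at aos2, GRMZM2G344416 and GRMZM2G173251 were chosen after their values were seen. Of the genes of the study's text, 0 were paired with such a peak in the labelled part of chromosome 1, which says nothing about the rest of the genome. Gene symbols came from RefSeq (Zm-B73-REFERENCE-NAM-5.0), matched by synonym, for names only. Gene labels were used for the part of chromosome 1 at hand. Alternatives were other limits, overlaps, diffScore minima, joined embryo peaks, fixed displacements and leaving out 10 to 13 Mb of chromosome 6. No sequence is shown, as no genome of the files' build was used here.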

Additional observations from a re-analysis of the deposited data

Results flagged for a closer look

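Outside chromosomes 1 to 10, 101 endosperm peaks on the unplaced sequences lay beside but not on an embryo peak, within 1000 bp. They stood out because these sequences enter no comparison above and the number is over the 3 that a count of 0 allows. The unplaced sequences hold 1013 endosperm peaks, of which 840 were on an embryo peak. The 101 were 58.4% of those not on one, and their median distance was 246 bp. Any sequence with many peaks passes such a floor, and no number from shifted positions was computed for these sequences. The cause was not tested.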

How the results depend on the processing

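Of 67 alternative values, 27 moved by less than their counting interval (or, for the number of peaks, by less than 1.5 times) and 40 moved further; in 9 of 9 the number beside stayed below that of shifted positions, and in 10 of 10 the share among peaks not on an embryo peak stayed above it. The share and its ratio, and the median diffScore and length, were added to the alternatives after seeing the data. By construction a limit of 500 bp gave fewer peaks, 8002, with a ratio to shifted positions of 0.506, a share of 27.1%, a ratio of that share of 1.78, a median distance of 202 bp and 8.61% two-sided. At 2000 bp these were a ratio of 0.368, 61.1%, 1.30, 587 bp and 22.1%. With an overlap of at least 50% of the shorter peak, the share was 46.0%, the distance 294 bp and 15.2% were two-sided. Peaks that shared less than this with an embryo peak counted here as beside it at distance 0. By construction this raises the share and lowers the distance. A diffScore of at least 100 in the endosperm list left 569 peaks, with ratios of 0.109 and 1.56, 336 bp, 15.3% two-sided, and medians of 115.29 in diffScore and 289 bp in length. The same minimum in the embryo list gave ratios of 0.823 and 1.62, a share of 21.4%, 382 bp, 6.98% two-sided and medians of 62.47 and 203 bp. In both lists it gave 941 peaks, ratios of 0.356 and 1.99, 26.2%, 346 bp, 10.9% two-sided and medians of 117.45 and 299 bp. With a minimum in the embryo list, endosperm peaks on a weaker embryo peak count as not on one. The peaks not on an embryo peak thus rose from 29498 to 55351. With the endosperm minimum they rose from 1316 to 3596. Many of the peaks under these settings therefore lie outside the rule. Joining embryo peaks within 500 bp left 12.2% two-sided. Fixed displacements of 10 to 100 kb gave ratios of 0.421 for the number and, added after seeing the data, 1.47 for the share, and displacements of 5 kb, also added then, 1.57. Except where construction sets the direction, the cause was not tested. No paired analysis was possible because either tissue has a single library. How depth limits these values was not analysed here, since the lists hold no read numbers.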
